A study of Mus musculus with 7 samples.

Results

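Levels were examined for 9 genes that handle or sense GABA in astrocytes, taken by symbol from a count table of 35976 genes. The handling genes were the transporter gene Slc6a11, the breakdown genes Abat and Aldh5a1, and the amine oxidase gene Maob. The others were the GABA-B receptor genes Gabbr1 and Gabbr2, and the GABA-A receptor subunit genes Gabra2, Gabrb1 and Gabrg1. All 9 were counted in each library and passed the filter on low counts, so that all 9 were tested, beside 38 of 45 other listed genes of the GABA pathway. Their levels were measured by RNA-seq in amygdala cells from male C57BL/6J mice that had received an adeno-associated virus carrying Cas9, expressed from the astrocyte promoter GfaABC1D, and a guide RNA. The guide was sgRosa in 4 libraries (labelled sgRosa26, the control target) and sgEgfr, against the epidermal growth factor receptor gene, in 3 libraries. Mice of both groups had the virus for more than 2 weeks and then went through tube restraint for 7 days, fear conditioning on 1 day and extinction on 3 days, so that no unstressed group entered the comparison. The sources used here give neither the age nor any pooling of mice, and do not say whether each library came from its own mouse, so the p-values refer to the variation among libraries. Cells were enriched with ACSA-2 magnetic beads, which can carry over other cell types.

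GABA is the main inhibitory transmitter of the brain. Astrocytes take it up through GAT-3, the product of Slc6a11, which lies mainly on astrocytes. Inside the cell GABA transaminase (Abat) and succinic semialdehyde dehydrogenase (Aldh5a1) feed it into the citric acid cycle, while monoamine oxidase B (Maob) takes part in a route that makes GABA from putrescine in astrocytes as well as in the oxidation of amines. Astrocytes also sense GABA through the G protein-coupled GABA-B receptor, an obligate dimer of the products of Gabbr1 and Gabbr2, and through GABA-A receptors, pentameric chloride channels.

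The libraries held 5852870 to 22579222 counts. Libraries sgRosa 3 and 4 differed by close to sampling noise alone (chi-square per degree of freedom 1.04, against 14.8 to 158 for the other 20 pairs of libraries) and were summed to 1 sample, sgRosa 3+4, which left 3 samples per group. All 20 astrocyte markers looked at were detected, among them Atp1b2, the gene of the ACSA-2 antigen, at 668 to 1600 CPM. CPM, the usual unit of counts relative to the library total, was computed with TMM scaling factors. Astrocyte markers together took 0.588% to 1.50% of the counts of a sample in sgRosa and 0.942% to 1.33% in sgEgfr. Oligodendrocyte markers took 7.26% to 10.8% in sgRosa and 8.15% to 14.4% in sgEgfr, so RNA of other cell types was present. Egfr itself was at 2.87 to 13.2 CPM in sgRosa and 5.69 to 10.7 CPM in sgEgfr (log2 fold change -0.13, SE 0.54, edgeR adjusted p = 0.997). A cut by Cas9 need not lower the count of a whole gene, so this is no check of the labels.

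The 3 GABA-A members lie on 1 stretch of mouse chromosome 5 of 1398 kb that holds 5 protein-coding genes in the GENCODE vM21 annotation of GRCm38 (mm10). Gabrg1 (chromosome 5, 70751047 to 70842617) and Gabra2 (70957597 to 71095849) are both on the minus strand, and Gabrb1 (71658113 to 72149037) is on the plus strand. The start of Gabrb1 overlaps by 196 bases that of Gabra4, another subunit gene on the opposite strand, and the sources used here do not say whether counting used strand. If it did not, reads of that overlap cannot be told apart. Gabrb1 also overlaps an antisense gene and 2 pseudogenes. Slc6a11 lies on chromosome 6 (114131241 to 114249952), Abat on chromosome 16 (8513429 to 8621568), Aldh5a1 on chromosome 13 (24907579 to 24937661), Maob on X (16709282 to 16817366), Gabbr1 on chromosome 17 (37045966 to 37075067) and Gabbr2 on chromosome 4 (46662305 to 46991873). Genes on the opposite strand, 1 pseudogene in Slc6a11 and 2 non-coding genes at Aldh5a1, overlap those members.

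The upstream sequences are shown of Slc6a11, the most abundant member, and of Gabra2 and Gabrg1, neighbours on the same strand. That of Gabrg1 differs in base content from the other 2. A relation of base content to the levels was not tested. They are the 250 bases before the start in the RefSeq promoter windows (GRCm38.p6), printed 5′ to 3′ on the gene's own strand, with CG dinucleotides in capitals: chr6:114130991-114131240 on the plus strand for Slc6a11, chr5:71095850-71096099 on the minus strand for Gabra2 and chr5:70842618-70842867 on the minus strand for Gabrg1.
Slc6a11: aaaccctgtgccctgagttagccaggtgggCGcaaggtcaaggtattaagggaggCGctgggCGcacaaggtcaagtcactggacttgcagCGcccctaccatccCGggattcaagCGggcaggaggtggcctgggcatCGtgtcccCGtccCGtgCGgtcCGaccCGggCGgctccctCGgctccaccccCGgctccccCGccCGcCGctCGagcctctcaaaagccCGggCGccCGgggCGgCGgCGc
Gabra2: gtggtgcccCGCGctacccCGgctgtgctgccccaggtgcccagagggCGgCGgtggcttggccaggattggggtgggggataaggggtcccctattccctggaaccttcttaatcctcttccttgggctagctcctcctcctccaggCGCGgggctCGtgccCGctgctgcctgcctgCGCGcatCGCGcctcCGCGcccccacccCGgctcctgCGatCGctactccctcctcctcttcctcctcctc
Gabrg1: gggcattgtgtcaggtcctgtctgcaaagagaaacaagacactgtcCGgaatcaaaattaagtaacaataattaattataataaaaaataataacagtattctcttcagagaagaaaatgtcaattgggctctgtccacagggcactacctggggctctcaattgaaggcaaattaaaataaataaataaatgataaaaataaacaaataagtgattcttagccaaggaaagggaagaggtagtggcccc
The window of Slc6a11 held 25 CG dinucleotides, that of Gabra2 held 18 and that of Gabrg1 held 1. Over the 32851 windows of the table the median was 6 (quartiles 2 and 16), and 89.3%, 78.3% and 7.87% of windows held fewer than these 3 genes in that order. GC content was 71.2%, 70.0% and 35.6%. CG reads the same on both strands. Of the 9 members, 7 had a window by symbol, all but Abat and Maob. Gabbr2 had the most CG dinucleotides among them, 37.

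None of the 9 genes differed between the guides by more than the spread between samples. Called at an edgeR quasi-likelihood adjusted p under 0.05, 0 of the 9 members were higher and 0 lower in sgEgfr, where 0% of the 14936 genes tested were called. Unadjusted p-values were under 0.05 for 0 of 9 members, against 2.68% of all genes. DESeq2 and limma-voom called 0 members each, with 0 at an unadjusted p under 0.05. The log2 fold changes of the members ran from -0.28 to 0.27 with a median of -0.03, beside a median of 0.02 over all genes tested, and 4 were positive and 5 negative. For every member the 3 sgEgfr samples lay between the lowest and the highest sgRosa sample, as for 23.2% of all genes tested. The lowest sample was sgRosa 2 for 8 of the 9 members, as for 24.7% of all genes. The spread (SD of CPM) was larger in sgRosa than in sgEgfr for all 9, as for 53.8% of all genes tested. A sgEgfr range inside that of sgRosa puts the lowest sample in sgRosa and nearly fixes which SD is larger. These counts are thus not separate results. In bulk RNA, fewer cells of a type and less RNA per cell cannot be told apart.

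**Figure D1:**
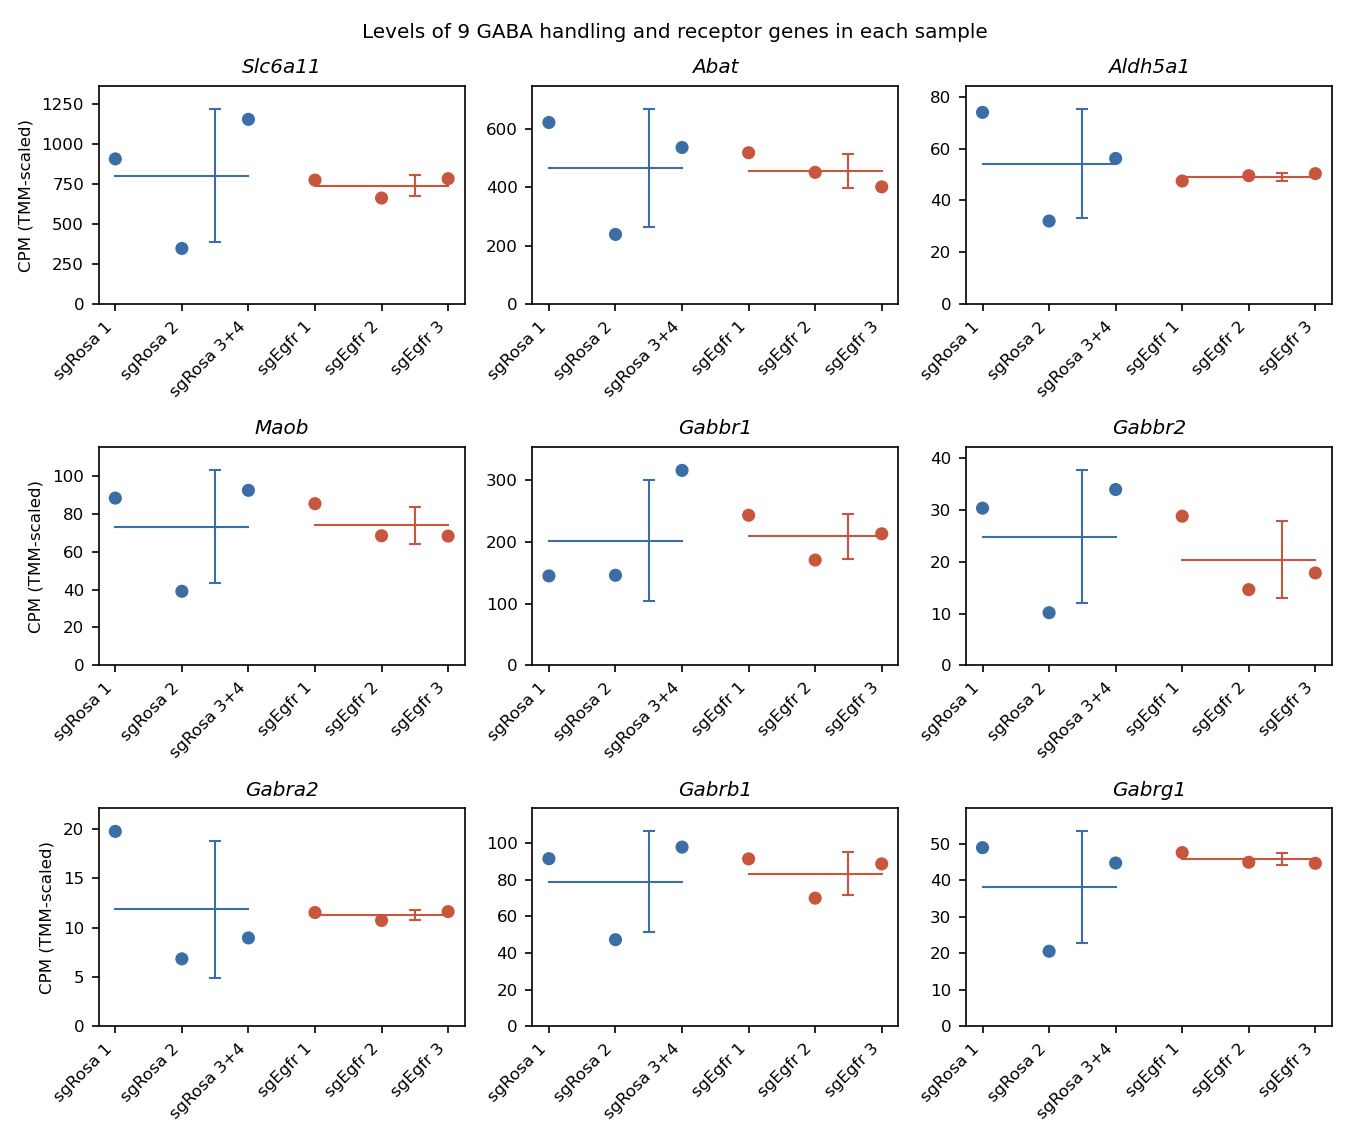
Level of each of the 9 genes in each sample, in TMM-scaled CPM on axes that start at 0; blue points are sgRosa samples and red points sgEgfr samples, horizontal lines are group means and bars are SD (n = 3 samples per group, sgRosa 3 and 4 summed). The red points lie inside the range of the blue points in all 9 panels, and sgRosa 2 is the lowest point in all panels but that of Gabbr1.

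Slc6a11 was at 907, 349 and 1154 CPM in the samples sgRosa 1, 2 and 3+4, against 775, 663 and 784 CPM in the samples sgEgfr 1 to 3. The control samples thus differed 3.31-fold from highest to lowest, and the sgEgfr samples sat close together between them. The means were 803 ± 412 CPM with sgRosa against 741 ± 67.2 CPM with sgEgfr (SD, n = 3 each), a log2 fold change of -0.12 (SE 0.40, 95% confidence interval -1.05 to 0.82, edgeR adjusted p = 0.997). The interval takes in changes from 0.482-fold to 1.76-fold. Leaving out sgRosa 2 gave -0.48 and leaving out sgRosa 1 gave -0.021, neither of them called (edgeR adjusted p at least 0.992). Leaving out sgRosa 3+4 turned the sign, to 0.24, and was not called either.

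Among the genes of breakdown and amine oxidation, Abat, which removes the amino group of GABA, was at 621, 239 and 536 CPM in sgRosa 1, 2 and 3+4. It was at 518, 451 and 401 CPM in the samples sgEgfr 1 to 3, inside the range of the controls (log2 fold change -0.03, SE 0.34, 95% confidence interval -0.83 to 0.77). Aldh5a1, which oxidises the product of Abat, was at 73.9, 32.1 and 56.2 CPM with sgRosa, against 47.5, 49.5 and 50.3 CPM in sgEgfr. The 3 sgEgfr values of Aldh5a1 nearly coincided, at an SD of 1.47 CPM against 21.0 CPM in sgRosa, and the guides differed by -0.14 on the log2 scale (SE 0.28, 95% confidence interval -0.79 to 0.51). Maob, whose product oxidises amines at the outer mitochondrial membrane, was at 88.2, 39.1 and 92.3 CPM with sgRosa, against 85.3, 68.4 and 68.2 CPM in sgEgfr. Its means were nearly equal, 73.2 ± 29.6 and 73.9 ± 9.82 CPM (SD, n = 3 each), with a log2 fold change of 0.02 (SE 0.31, 95% confidence interval -0.71 to 0.74) that was -0.01 with no scaling factor. The adjusted p was 0.997 for Abat and Aldh5a1 and 0.998 for Maob (edgeR).

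The pair of GABA-B receptor genes had the same order over 5 of the 6 samples, from sgRosa 2 up through sgEgfr 2, 3 and 1 to sgRosa 3+4, and sgRosa 1 was low for Gabbr1 and high for Gabbr2 (r = 0.590 over the 6 samples, a description). Gabbr1, which encodes the subunit that binds GABA, was at 145, 146 and 316 CPM in the samples sgRosa 1, 2 and 3+4, against 243, 171 and 213 CPM in the samples sgEgfr 1 to 3. It was the 1 member that was not lowest in sgRosa 2, since sgRosa 1 lay just under it, and sgRosa 3+4 stood above all other samples. On the log2 scale the guides differed by 0.05 (SE 0.33, interval at 95% confidence -0.72 to 0.82, edgeR adjusted p = 0.997). Gabbr2, which encodes the subunit that couples to the G protein, was at 30.4, 10.2 and 34.0 CPM with sgRosa, against 28.8, 14.6 and 17.9 CPM in sgEgfr. Its low values were in sgRosa 2, sgEgfr 2 and sgEgfr 3, and its high values in sgRosa 1, sgRosa 3+4 and sgEgfr 1. The log2 fold change, -0.28 (SE 0.46, 95% confidence interval -1.34 to 0.78, edgeR adjusted p = 0.997), had the widest interval of the 9. It was -0.66 without sgRosa 2, -0.61 without sgEgfr 1, -0.11 without sgRosa 1 or without sgEgfr 2, and 0.013 without sgRosa 3+4.

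Of the GABA-A subunit genes, Gabrg1, a gamma subunit gene expressed in astrocytes, had the largest positive difference and was still not called. It was at 48.9, 20.6 and 44.7 CPM in the samples sgRosa 1, 2 and 3+4, against 47.5, 44.9 and 44.6 CPM in the samples sgEgfr 1 to 3. All samples but sgRosa 2 lay within 1.10-fold of each other, and the log2 fold change of 0.27 (SE 0.30, 95% confidence interval -0.44 to 0.97) became -0.04 without sgRosa 2. Gabrb1, a beta subunit, was at 91.5, 47.3 and 97.8 CPM with sgRosa, against 91.4, 70.0 and 88.7 CPM in sgEgfr (log2 fold change 0.08, SE 0.28, 95% confidence interval -0.56 to 0.73). Gabra2, an alpha subunit that amygdala neurons also carry, was at 19.7, 6.84 and 8.95 CPM with sgRosa, against 11.5, 10.7 and 11.6 CPM in sgEgfr. Here sgRosa 1 stood above the other samples, and the log2 fold change of -0.07 (SE 0.40; in fold, 95% confidence interval 0.500 to 1.82) was 0.52 without it. Gabra2 rested on 52 to 280 counts per library, the fewest of the members. The edgeR adjusted p was 0.997 for these 3 subunits.

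Per kilobase of coding sequence, Slc6a11 had the highest level of the 9, 410 ± 142 CPM per kb (SD, n = 6 samples), followed by Abat (307 ± 88.2), and the ranges of these 2 overlapped although Slc6a11 was higher in 6 of 6 samples. Gabbr1 (71.4 ± 23.1 CPM per kb), Gabrb1 (57.1 ± 13.4), Maob (47.2 ± 12.7), Aldh5a1 (32.9 ± 8.66) and Gabrg1 (30.0 ± 7.59) formed a middle group in which each overlapped its neighbour. Gabra2 (8.55 ± 3.25 CPM per kb) and Gabbr2 (8.03 ± 3.43) came last, and Gabra2 was the higher of this pair in 4 of 6 samples. Ranges did not overlap between Abat and Gabbr1, nor between Gabrg1 and Gabra2. The level of Gabbr1 per coding length was thus well above that of its obligate partner Gabbr2. Of the GABA-A genes in the chromosome 5 stretch, Gabra4 was at 8.83 ± 3.08 CPM per kb, beside Gabra2. The order and the gaps depend on the length used. The longest annotated transcript of Gabrb1 has 13737 bases against 1422 coding bases, and per kilobase of transcript Gabrb1 came 7th (5.91 CPM per kb). By that length Gabra2 (1.98 CPM per kb) came below Gabbr2 (3.94). The ranges of Abat (lowest 51.6) and Gabbr1 (highest 60.2) then overlapped.

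**Figure D2:**
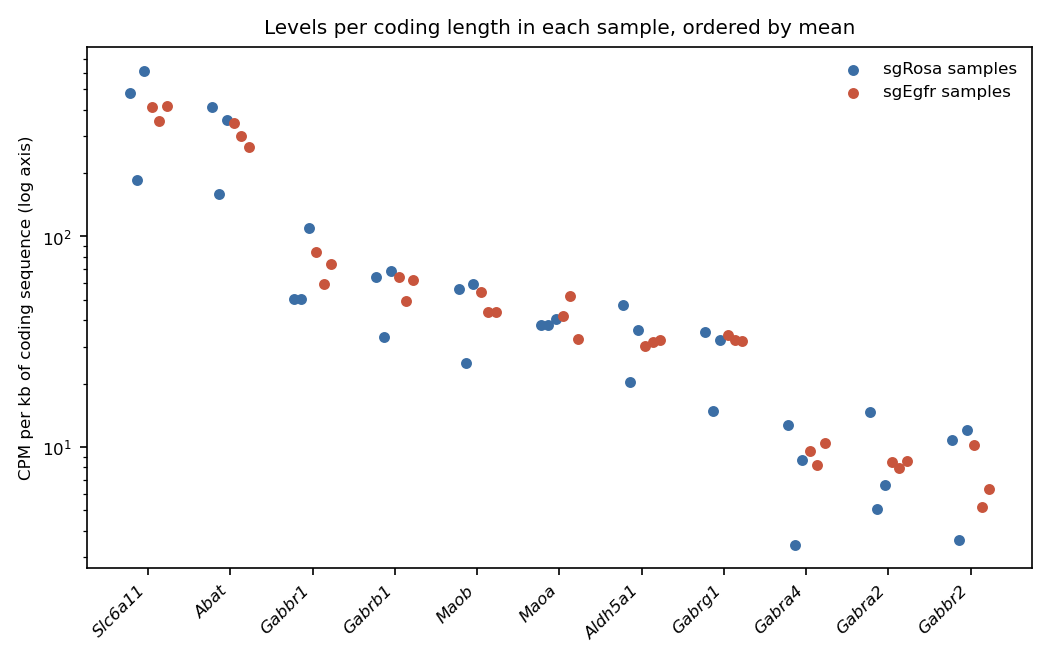
CPM per kilobase of coding sequence of the 9 genes and of Maoa and Gabra4 in each of the 6 samples, on a log axis, ordered by mean. Blue points are sgRosa samples and red points sgEgfr samples; Slc6a11 is highest, at a mean of 410 CPM per kb, and Gabbr2 is lowest at 8.03.

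Ratios of counts within a sample do not depend on scaling, and 5 were compared. Counts of Gabbr1 were 4.77, 14.3 and 9.29 times those of Gabbr2 in sgRosa 1, 2 and 3+4 and 8.44, 11.7 and 11.9 times in sgEgfr 1 to 3. The ratio differed 3.01-fold among the controls alone, which took in all sgEgfr values. Maob to Maoa, the gene of the other monoamine oxidase, was 1.47, 0.649 and 1.44 in sgRosa and 1.29, 0.828 and 1.32 in sgEgfr. This ratio was low in sgRosa 2 and sgEgfr 2, the samples with the highest share of oligodendrocyte markers (10.8% and 14.4%) and the lowest share of astrocyte markers (0.588% and 0.942%), and the part of cell content in it was not tested.

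The ratios of Abat to Aldh5a1 and of Gabrg1 to Gabrb1 had the smallest ranges of the 5. Abat to Aldh5a1 stayed between 7.45 and 10.9 in all 6 samples, a 1.46-fold range. Gabrg1 to Gabrb1 ran from 0.434 to 0.534 in sgRosa and from 0.503 to 0.641 in sgEgfr, a 1.48-fold range. Gabra2 to Gabrb1 was 0.216 in sgRosa 1 and 0.0915 to 0.153 in the other samples. All 5 ratios overlapped between the groups. The exact two-sided permutation p was 0.3 for Gabrg1 to Gabrb1 and 0.5 to 1 for the other 4 (adjusted p = 1 for each of the 5; 3 samples against 3 cannot go below 0.1).

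**Figure D3:**
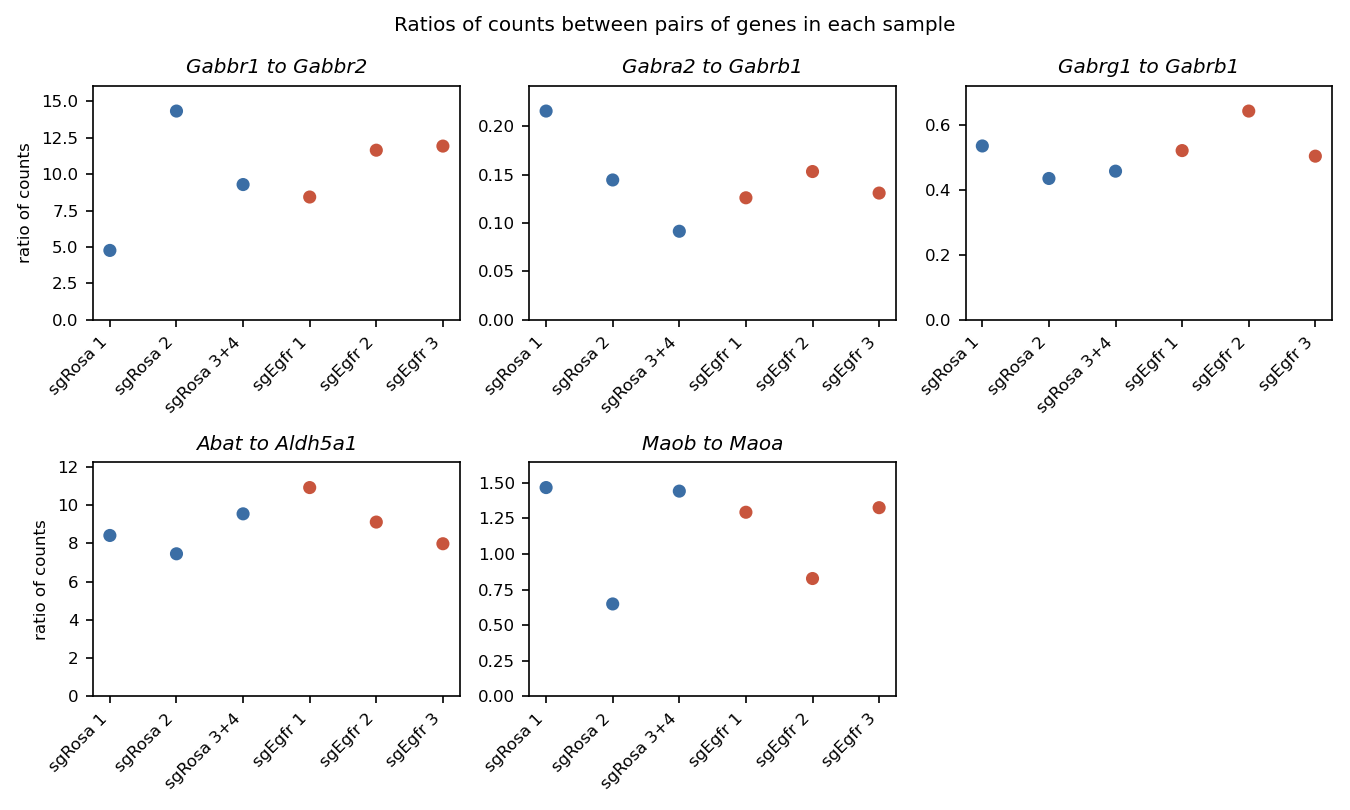
Ratios of counts between pairs of genes in each sample, on axes that start at 0 (blue, sgRosa; red, sgEgfr). The red points overlap the blue points in all 5 panels, and Gabbr1 to Gabbr2 spans 4.77 to 14.3 within sgRosa.

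In sgRosa 2, where astrocyte markers were lowest, 8 of the 9 members were lowest too. The score of the astrocyte list, the mean log2 CPM of its 20 genes relative to the mean of the samples, was -0.89 in sgRosa 2 and 0.46 in sgRosa 3+4, with the other samples between -0.01 and 0.27. Over the 6 samples, Slc6a11 followed this score with Pearson's r = 0.951 (exact permutation p = 0.0167, adjusted p = 0.159 over 27 relations) and Spearman's rho = 0.771 (exact permutation p = 0.103, adjusted p = 0.525). Without sgRosa 2 and sgRosa 3+4, the 2 samples farthest from the median score, r was 0.156, so the relation rested on those samples. For Gabrb1, r was 0.956 (exact permutation p = 0.00556, adjusted p = 0.15; rho = 0.829, exact permutation p = 0.0583, adjusted p = 0.394) and 0.640 without them. Gabbr1 had r = 0.751 (exact permutation p = 0.0667, adjusted p = 0.23; rho = 0.829, exact permutation p = 0.0583, adjusted p = 0.394) and 0.886 without them, although it was not lowest in sgRosa 2. Gabra2 had the lowest r of the 9, 0.447 (exact permutation p = 0.347, adjusted p = 0.389; rho = 0.2, exact permutation p = 0.714, adjusted p = 0.803), and -0.291 without them. Positive values were not particular to the astrocyte score. With the neuron score, also lowest in sgRosa 2 (-0.56), r of the 9 genes ran from 0.340 (Gabbr1) to 0.798 (Gabrb1). With the oligodendrocyte score r ran from -0.770 (Gabrb1) to -0.409 (Gabbr1). Gabra2 had rho = 0.886 with the neuron score (exact permutation p = 0.0333, adjusted p = 0.394). None of the 27 relations, of the 9 genes with the astrocyte, neuron and oligodendrocyte scores, passed the correction. The smallest adjusted permutation p was 0.15 for r and 0.394 for rho. Each group alone has 3 samples, too few for a value within it.

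With the astrocyte score as a covariate, the log2 fold changes were -0.30 for Slc6a11, -0.54 for Gabbr2 and 0.11 for Gabrg1, and 0 of the 9 members were called (edgeR adjusted p at least 0.983). In that fit 8 of the 9 were negative, and Maob (-0.16), Gabbr1 (-0.10) and Gabrb1 (-0.09) had changed sign. The mean score was 0.27 higher in sgEgfr than in sgRosa, and r with it was positive for each member (0.447 to 0.956). Adjusting for the score thus tends to lower the values of these genes, and the count of negative values is no separate result. The share of negative values over all genes in that fit is not given here. Several members also varied together (r = 0.976 for Abat with Maob), so the count is a description only. The guide and the cell content of a sample cannot be told apart with certainty in 6 samples.

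**Figure D4:**
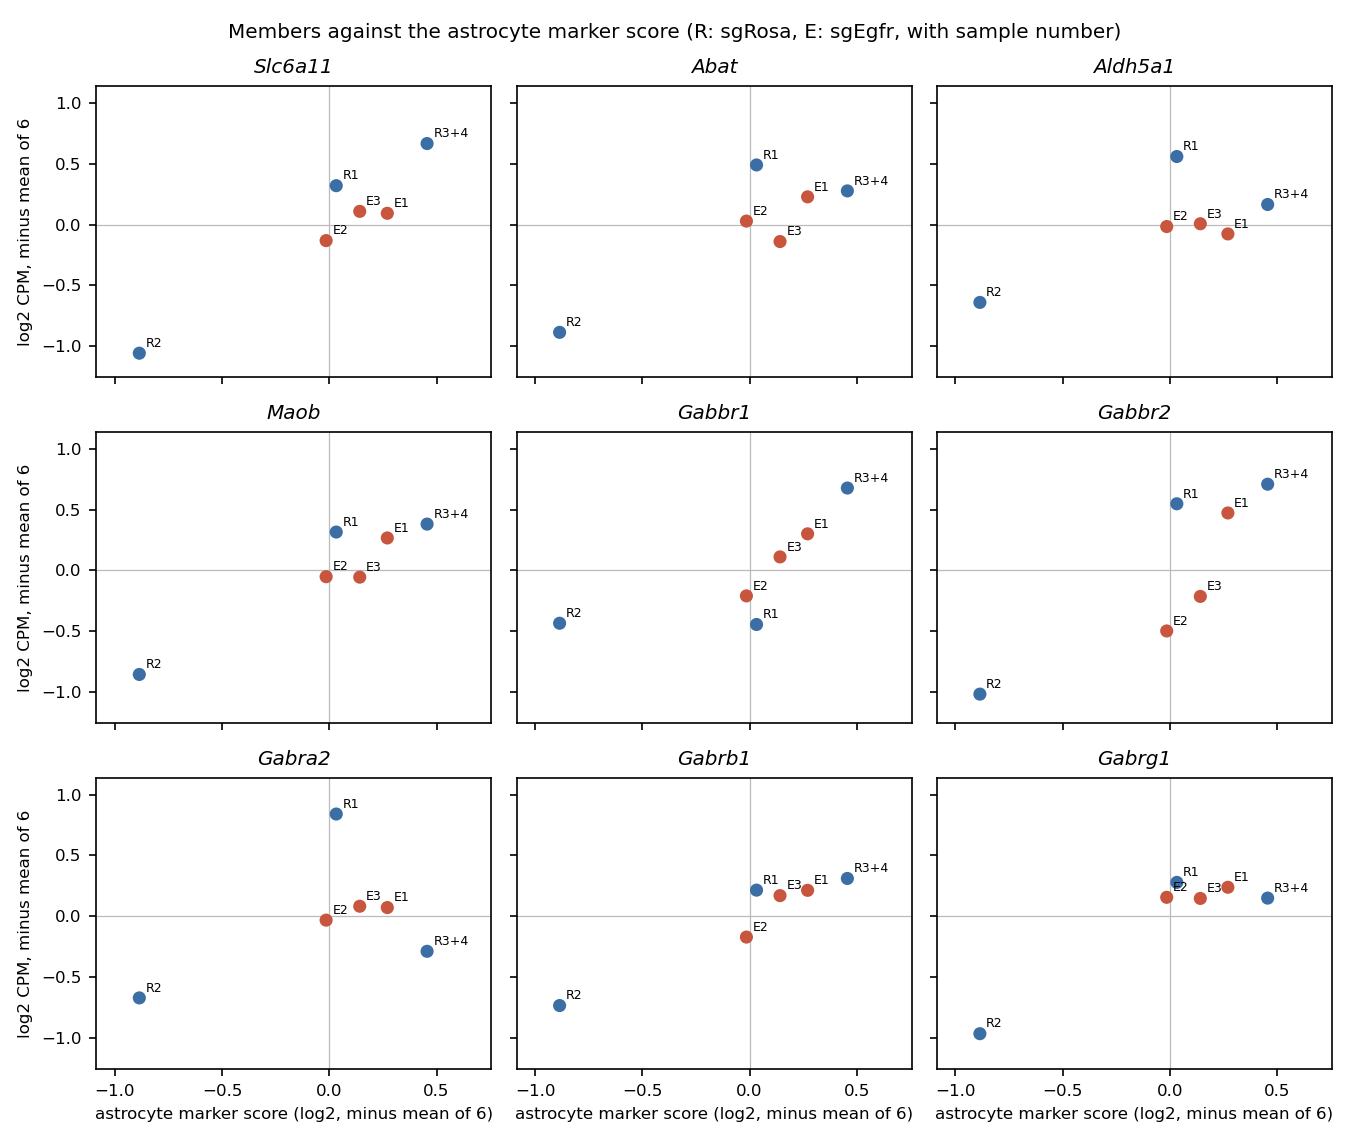
Each member's log2 CPM, relative to its mean over the 6 samples, against the astrocyte marker score of the same sample (R, sgRosa; E, sgEgfr; with the sample number). The point of sgRosa 2 stands apart at a score of -0.89 in every panel, and the other 5 samples lie between -0.01 and 0.46.

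Some genes outside the 9 had sample profiles close to those of the members. By Pearson's r of log2 CPM over the 6 samples, among 9033 other genes with a mean of at least 10 CPM, the 3 most alike were Bcr (0.999), Gramd4 (0.998) and Itsn1 (0.996) for Slc6a11. Among those of Maob were Gcsh (0.998), a subunit of the glycine cleavage system, and Ndrg2 (0.994), an astrocyte-rich gene. Abat was most like Erc1 (0.997), Eif2ak2 (0.996) and Gstt3 (0.991), and those of Aldh5a1 included Drp2 (0.997) and Smdt1 (0.996). Gabbr1 had Emp2 (0.996), Slc7a2 (0.989) and Slc27a1 (0.979), and Gabbr2 had Adrbk2 (0.987), Cap2 (0.987) and Ivd (0.985). For the GABA-A genes they were Tmem55a (0.990), Cpne3 (0.984) and Pnpla8 (0.982) with Gabra2, Decr2 (0.996), Tor3a (0.995) and Lasp1 (0.994) with Gabrb1, and Glrx (0.999), Snn (0.994) and Cox7b (0.990) with Gabrg1. These were picked as the highest of 9033 values over 6 samples, within which depth and cell content also vary, and they are a description only. Among the members, the r of Abat with Maob was 0.976 and that of Slc6a11 with Gabrb1 was 0.963, whereas Gabbr1 with Gabra2 gave -0.215, the lowest of the 36 pairs.

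Of the 45 other genes of the pathway, 38 passed the filter and 0 were called higher or lower (edgeR adjusted p = 0.997 for each). At an unadjusted p under 0.05 there was 1 of 38, against 2.68% of all genes, and DESeq2 and limma-voom had 2 each and called 0. The median log2 fold change of the 38 was 0.18, beside 0.02 over all genes tested, with 28 positive and 10 negative. CPM ranges did not overlap between the groups for 3 of the 38, against 7.61% of all genes tested. Of the 3, 1 was higher in sgEgfr (3.76% of all genes) and 2 were lower (3.85% of all genes), among them Clptm1 at 277, 286 and 253 CPM with sgRosa, against 241, 209 and 228 CPM in sgEgfr.

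Of the 38, the gene with the smallest p was Gad1, which with Gad2 encodes the enzymes that make GABA in inhibitory neurons. Gad1 was at 18.5, 7.15 and 9.08 CPM in the samples sgRosa 1, 2 and 3+4, against 17.3, 27.8 and 21.2 CPM in the samples sgEgfr 1 to 3, with sgRosa 1 above sgEgfr 1. Its log2 fold change was 0.93 (SE 0.38, unadjusted p = 0.0428, edgeR adjusted p = 0.997). It was 1.45 without sgRosa 1, 0.68 without sgRosa 2 and 0.72 without sgEgfr 2, and was called in none of these fits. Gad2 was at 14.7, 6.68 and 6.41 CPM with sgRosa, against 14.7, 22.3 and 13.2 CPM in sgEgfr (log2 fold change 0.85, SE 0.40, edgeR adjusted p = 0.997), with 1.35 without sgRosa 1 and 0.57 without sgEgfr 2. Neuron markers mostly had the same sign: 12 of 13 tested had positive log2 fold changes with a median of 0.48 (Snap25 0.48), and of the inhibitory neuron list, which holds both Gad genes, 5 of 7 tested were positive. The summed share of neuron markers ranged from 0.0324% to 0.0497% in sgRosa and from 0.0463% to 0.0543% in sgEgfr, and no gene of that list was at 0 in all libraries. Other lists also had mostly positive values: 9 of 10 oligodendrocyte precursor markers (median log2 fold change 0.70), 10 of 10 microglia markers (0.49), 9 of 10 endothelial markers (0.75), 5 of 5 ependymal markers (1.52) and 7 of 8 heat shock genes (0.49). Among mural and fibroblast markers 4 of 9 tested were positive, and among oligodendrocyte markers 5 of 12 (median log2 fold change -0.08). Astrocyte markers had 14 of 20 positive (0.20). Over all genes tested, 7895 of 14936 were positive. The summed share of oligodendrocyte precursor markers was 0.0705% to 0.0925% in sgRosa and 0.0812% to 0.140% in sgEgfr, that of microglia markers 0.0137% to 0.0276% and 0.0177% to 0.0392%, and that of heat shock genes 0.114% to 0.175% and 0.163% to 0.213%. That of ependymal markers was 0.00521% to 0.0342% in sgRosa and 0.00344% to 0.0927% in sgEgfr. Its lowest value of all samples was in sgEgfr 2 and its highest in sgEgfr 3. The part of these cells and genes in the Gad values was not tested. Slc32a1, the vesicular GABA transporter of the same neurons, had a log2 fold change of -0.54 (SE 0.52) at 0.611 to 1.62 CPM.

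The remaining groups showed the following. Of the other GABA transporters, 3 of 4 were tested, and Slc6a13, the transporter GAT-2 of vessels and meninges, had 0.42 (SE 0.30). Endothelial markers stand beside it, with a summed share of 0.00447% to 0.00699% in sgRosa and 0.00739% to 0.00867% in sgEgfr. Of these markers, 4 of 10 had an unadjusted edgeR p under 0.05, against 2.68% of all genes tested. The neuron list had 2 of 13 tested and the heat shock list 2 of 8, and each of the remaining marker lists had 0 or 1. Mural and fibroblast markers took 0.0652% to 0.0695% in sgRosa and 0.0578% to 0.0716% in sgEgfr, with a median log2 fold change of -0.01. The part of the endothelial list or of the mural and fibroblast list was not tested. Slc6a12 had 0 to 2 counts per library and was not tested. In the list of GABA synthesis and side routes, 9 of 12 tested genes were positive (median 0.14), among them Aldh1a1 (0.39, SE 0.35), an aldehyde dehydrogenase, while Glul, glutamine synthetase, had -0.34 (SE 0.24). Maoa had 0.12 (SE 0.19; -0.09 without sgEgfr 2). Of the other GABA-A subunits, 10 of 16 were tested and 9 of those were positive, with a median of 0.46. Among them Gabrg3 had 0.71 (SE 0.49) and Gabra3 0.53 (SE 0.32), at group means of 2.12 to 6.26 CPM. The marker lists with mostly positive values, given above, stand beside these subunits too, and their part was not tested. Gabrp had 0 counts in all 7 libraries, which allows up to 0.133 to 0.513 CPM by counting error alone. Receptor partners and chloride cotransporters had 8 of 13 positive, and among those with the smallest p were Slc12a2, the chloride importer NKCC1 (-0.42, SE 0.22), Clptm1, which holds back GABA-A receptors in the cell (-0.27, SE 0.15), and Kctd12, a GABA-B receptor partner (0.32, SE 0.28). None of these was called (edgeR adjusted p = 0.997 for each), and all values are log2 fold changes.

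**Figure D5:**
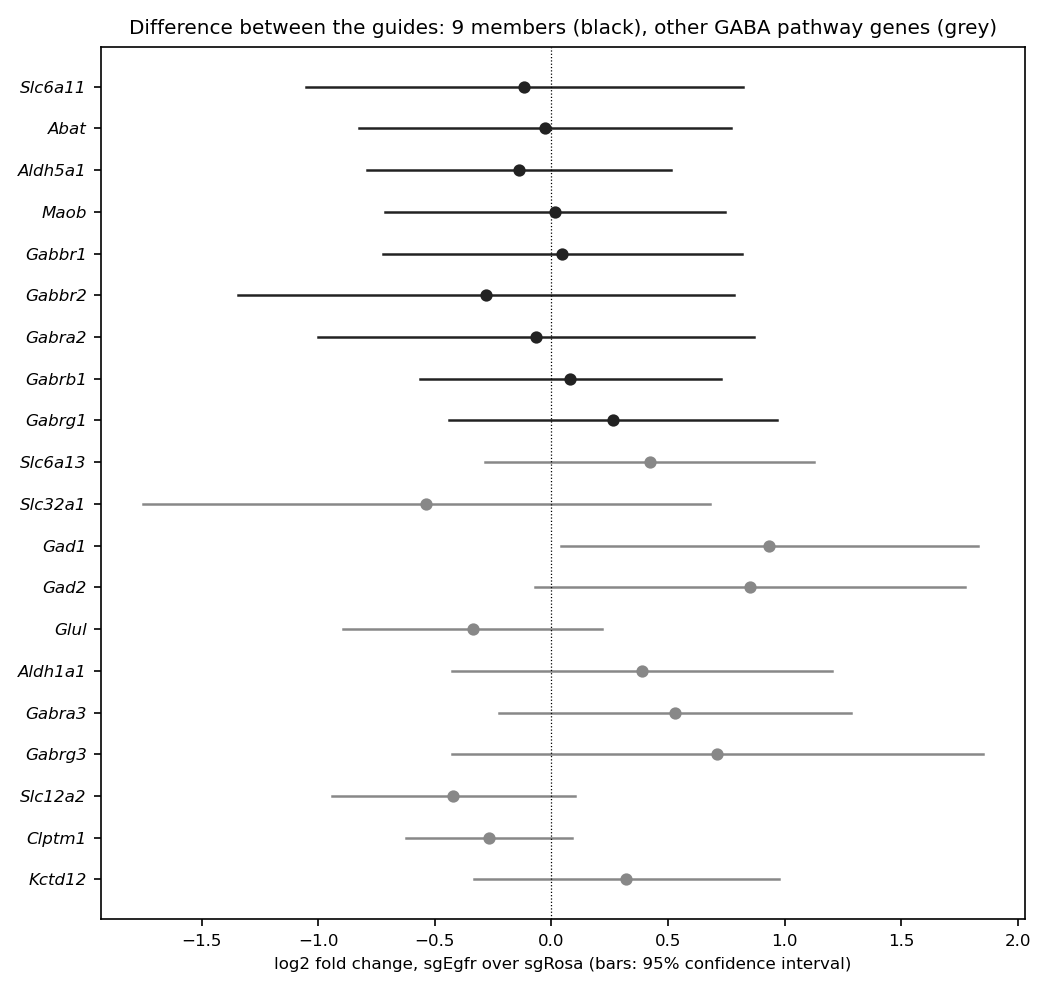
Log2 fold changes of sgEgfr over sgRosa with 95% confidence intervals from the edgeR fit over all genes, for the 9 members (black) and pathway genes of the smallest p in each list (grey), with 3 samples per group. The intervals of all 9 members include 0, and among the grey genes only that of Gad1 does not, before any adjustment.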

How the data were processed

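RNA-seq counts were analysed for 4 sgRosa and 3 sgEgfr libraries. The authors' deposited values are whole-number counts without normalisation, in 1 table and again in 7 single-library files with identical values. Per the submitters' processing notes, the build was mm10 and the tools included fastp 0.23.2, STAR 2.7.5c and featureCounts 2.0.1. The annotation, strand setting and treatment of multi-mapped reads are not stated in those sources. Counts of sgRosa 3 and 4 were summed after their chi-square (genes of 20 or more counts in the pair) came out close to sampling noise. Genes were filtered with filterByExpr (minimum count 10, minimum total 15), scaled with TMM and tested in edgeR 4.0.16 (R 4.3.3, glmQLFTest, guide as the only term), with Benjamini-Hochberg adjustment over 14936 genes. Log2 CPM used a prior count of 2. The script was tested on simulated data. Lengths and positions came from GENCODE vM21. Libraries of 5852870 to 22579222 counts make 3 counts equal to 0.133 to 0.513 CPM, and such limits cover counting error only.

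The members and lists were chosen with earlier results of these data known. The genes named were the members, Egfr, the partners in the ratios, defining markers, up to 4 genes of the smallest p in each pathway list, genes at 0 in all libraries, and for each member the 3 genes of the highest r. Some genes that this rule names, and 1 planned ratio, are not reported here. Alternatives were RLE or no scaling, no filter, DESeq2 1.42.0, limma-voom (limma 3.58.1), the replicate number as a block, the 7 libraries as separate samples, leaving out each library and marker scores as covariates. Plots used matplotlib 3.10.9.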

Additional observations from a re-analysis of the deposited data

How the results depend on the processing

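None of the 9 members was called under any alternative run, and 0 genes were called over all genes in each of them. In the fit as reported, 0 genes had an adjusted p under 0.1 as well. Between 236 and 1337 genes had an unadjusted p below 0.05. A member was among them in 2 alternatives: Aldh5a1 without sgRosa 2 (-0.41, edgeR adjusted p = 0.992) and Gabbr1 with sgRosa 3 and 4 left out (0.52, edgeR adjusted p = 0.738). Each of the 9 members changed sign in at least 1 of 19 alternatives, Aldh5a1 and Gabbr2 in 1 each, and the cause was not tested. The small groups and the spread within sgRosa limit what could be seen, since the intervals of the members reach from 0.394-fold (Gabbr2) to 1.96-fold (Gabrg1).

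The log2 fold changes that turned sign were these. Without scaling, Maob had -0.0069. With limma-voom, Slc6a11 had 0.023, Abat 0.066, Gabra2 0.14, Egfr 0.18 and Slc1a2, the astrocyte glutamate transporter, 0.086. With 7 separate libraries, Maob had -0.073, Gabbr1 -0.14 and Gabra2 0.018, and the log2 differences of the ratios were 0.091 for Gabra2 to Gabrb1 and -0.065 for Maob to Maoa. With the astrocyte score as covariate, Maob had -0.16, Gabbr1 -0.10 and Gabrb1 -0.085, and with the neuron score -0.21, -0.11 and -0.20 in the same order. With sgRosa 3 and 4 left out, Slc6a11 had 0.24, Abat 0.089, Gabbr2 0.013, Egfr 0.019 and Slc1a2 0.28. With sgRosa 2 and sgEgfr 3 left out, the samples farthest apart in neuron score, Maob had -0.23, Gabbr1 -0.16, Gabrb1 -0.23, Gabrg1 -0.018 and the ratio of Maob to Maoa -0.49.

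Leaving out each library in turn, the values ran from -0.48 to -0.021 for Slc6a11, -0.66 to -0.11 for Gabbr2, -0.34 to 0.24 for Abat, -0.41 to 0.16 for Aldh5a1, -0.29 to 0.17 for Maob, -0.14 to 0.15 for Gabbr1, -0.35 to 0.52 for Gabra2, -0.19 to 0.20 for Gabrb1 and -0.037 to 0.49 for Gabrg1. The lowest value came without sgRosa 2 and the highest without sgRosa 1 for these genes, except Gabbr2, highest without sgEgfr 2, and Gabbr1, lowest without sgRosa 1 and highest without sgEgfr 2. Other ranges were -0.55 to 0.28 for Egfr, -0.086 to 0.27 for Maoa, -0.015 to 0.28 for Atp1b2 and -0.34 to 0.11 for Slc1a2. The log2 ratio differences ran from -0.13 to 0.66 for Gabbr1 to Gabbr2, -0.14 to 0.24 for Gabra2 to Gabrb1 and -0.37 to 0.24 for Maob to Maoa. In these fits sgRosa 3 and 4 were left out singly, so the sample sgRosa 3+4 was never wholly removed. With both left out, Slc6a11 (0.24), Maob (0.22), Gabbr1 (0.52), Gabbr2 (0.013) and Gabrb1 (0.27) lay above the ranges given for them.

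With the replicate number as a block (sgRosa 3+4 as number 3), 0 genes and 0 members were called, and 705 genes had an unadjusted p under 0.05. Slc6a11 had 0.041, Abat 0.073, Gabra2 0.081, Egfr 0.060 and Slc1a2 0.11, and with libraries 1 to 3 alone 0.038, 0.071, 0.076, 0.045 and 0.11, in the same order. Deviations from the group means correlated at -0.106, 0.517 and 0.549 between samples of the same number. For sgRosa 2 and sgRosa 3+4 the sample of the same number was the best match, whereas sgRosa 1 correlated best with sgEgfr 3 (0.0841). Deviations within a group of 3 samples are tied to each other, so these values cannot decide whether samples of the same number belong together. The labels give them only a number in common, and a shared batch was not tested.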
